A study of Mus musculus with 6 samples.

Results

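The 10 genes described here encode the machinery of 3 energy-consuming cycles that have been studied in thermogenic fat beside uncoupling through UCP1: creatine cycling (Gatm, Gamt, Slc6a8, Ckb, Ckmt1, Ckmt2 and Alpl), calcium cycling across the endoplasmic reticulum (Atp2a2 and Ryr2) and glycerol cycling (Gk). They were chosen by name, as known components of these cycles, from the 23282 gene rows of the count data. All 10 were found, with Gk listed under its older symbol Gyk, and 8 passed the filter on low counts and were tested. RNA came from brown adipose tissue (BAT), the organ that burns fuel for heat, of male C57BL/6N mice at 5 weeks of age. Of the 6 mice, 3 were wild type and 3 were Letmd1 KO. Letmd1 encodes a mitochondrial protein. The Letmd1 KO mice carried a knockout-first allele, in which a lacZ and neomycin resistance cassette sits in an intron of the gene, so that the gene was disrupted in all tissues and not in brown adipocytes alone. The allele came from an embryonic stem cell clone, and wild-type mice did not carry it.

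In creatine cycling, phosphocreatine is made by a creatine kinase from creatine and ATP and is broken down again without useful work, which returns ADP to the ATP synthase. In calcium cycling, a SERCA pump spends ATP to take calcium into the endoplasmic reticulum and a channel lets it back out. In glycerol cycling, glycerol kinase phosphorylates the glycerol that lipolysis sets free, so that fatty acids can be esterified again at the cost of ATP. The comparison asks how the transcripts of these routes stood in BAT that had lost most of its Ucp1 transcript.

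Of the 8 genes tested, 4 were higher in Letmd1 KO BAT (Gatm, Gamt, Slc6a8 and Ckb) and 2 were lower (Alpl and Gk) by edgeR's quasi-likelihood test (threshold 0.05 on p-values that were adjusted by the Benjamini-Hochberg method). The other 2 tested, Ckmt2 and Atp2a2, did not pass, and Ckmt1 and Ryr2 were too low to test. The 4 that rose are the 2 enzymes of creatine synthesis, the creatine transporter and the cytosolic brain-type creatine kinase. Over all 12995 genes tested, 23.7% were called higher and 22.3% lower. The median log2 fold change of the 8 genes was 1.09, beside 0.03 for all genes tested. In 4 of the 8 every Letmd1 KO mouse lay above every wild-type mouse, and in 2 every Letmd1 KO mouse lay below. The same was true of 30.1% and 27.2% of all genes tested, respectively.

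**Figure D1:**
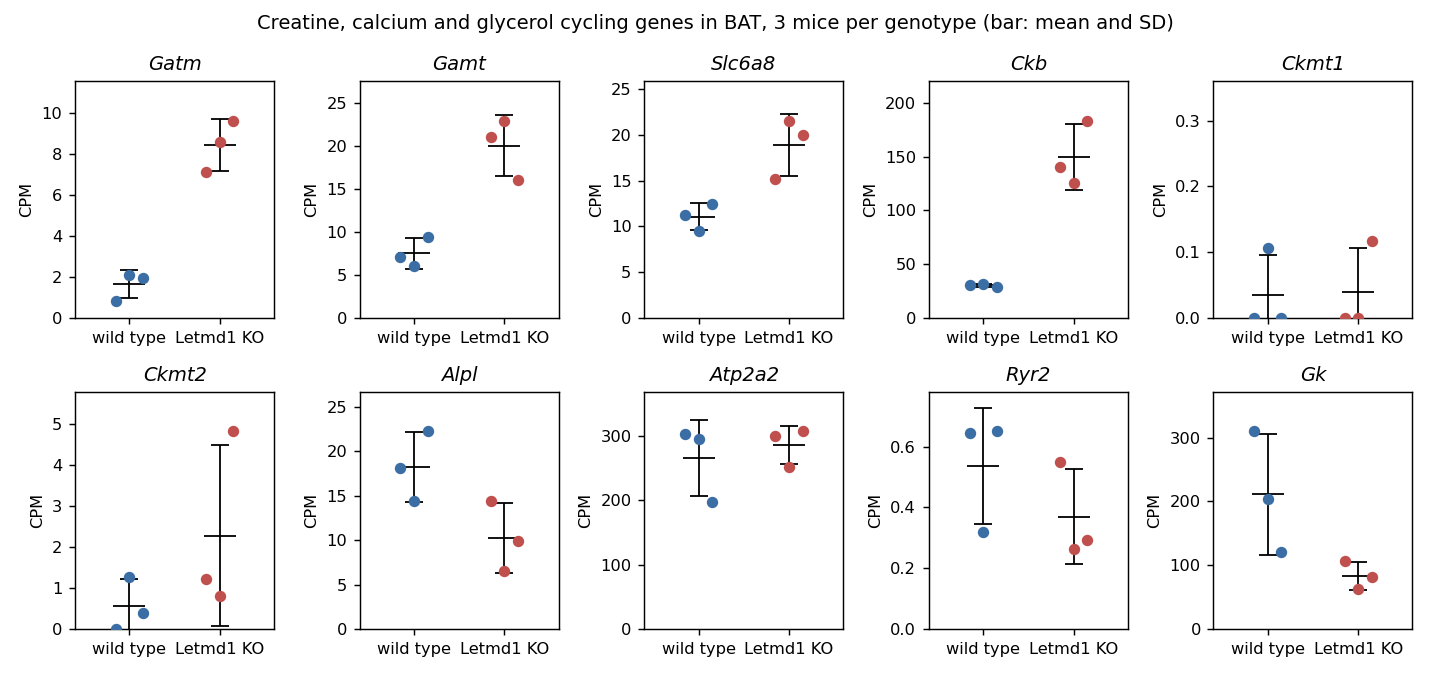
Level of each of the 10 genes in each mouse, in CPM (read counts divided by the scaled library size, vertical axes from 0, a scale of its own for each gene), with wild-type mice in blue and Letmd1 KO mice in red. Bars give the mean and SD of 3 mice. The Letmd1 KO mice lie wholly above the wild-type mice for Gatm, Gamt, Slc6a8 and Ckb and wholly below for Alpl and Gk.

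The mice had between 6669577 and 14574273 counts, and the limit that a count of 0 allows, 3 counts, corresponded to between 0.176 and 0.397 CPM (counting error only). CPM values were scaled by TMM, which assumes that most genes do not change, with factors between 0.852 and 0.887 in wild-type mice and between 1.13 and 1.17 in Letmd1 KO mice. Without this scaling the median over all genes was 0.45 on the log2 scale, so a fold change of any gene here is relative to that choice, and 1368 genes were then lower and 5899 higher in place of 2896 and 3082. The targeted gene, Letmd1, gave 5658, 6490 and 5266 counts in wild-type BAT, and 0, 0 and 1 in Letmd1 KO BAT. Nothing in the labels ties a wild-type mouse to a Letmd1 KO mouse. The edgeR p-values set the difference between genotypes against the spread between mice of the same genotype among these 6 samples. That spread is estimated for each gene partly from the other genes tested.

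The cellular markers of the tissue also moved. The summed level of 14 brown adipocyte markers was between 17009 and 18617 CPM in wild-type BAT and between 3746 and 5279 CPM in Letmd1 KO BAT. Ucp1 had the most counts among them, and 9 were called lower, 0 higher and 5 not called. The 13 macrophage markers were all called higher, with sums of 187 to 251 CPM in wild-type and 1385 to 3313 CPM in Letmd1 KO mice. Of the 9 fibroblast and progenitor markers, 9 were higher, with sums of 1507 to 2039 against 4112 to 6870 CPM. The Schwann cell and nerve markers summed to 315 to 333 against 446 to 613 CPM, with 6 of the 8 tested higher, and the sympathetic marker Th at 0 in every mouse. The 10 endothelial markers summed to 813 to 900.1 CPM in wild-type and 538 to 680 CPM in Letmd1 KO mice. Of these, 4 were called lower, 0 higher and 6 not called, and Kdr, which had the most counts, fell most. Skeletal muscle markers varied from mouse to mouse: their sum was 88.9, 566 and 103 CPM in wild-type BAT and 527, 409 and 1473 CPM in Letmd1 KO BAT, with 3 of 16 called higher. In a bulk sample, fewer cells of a type and less RNA per cell cannot be told apart, and the part of these cell types in the results that follow was not tested except where a value is given.

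The stretches of 250 bases before the annotated start are shown for the members that rose and have a RefSeq promoter entry (Gatm, Gamt and Ckb) and for the member that fell most (Gk), as examples from both directions of change. Sequences are from RefSeq on GRCm38.p6, 5′ to 3′ on the strand of the gene, all 4 of which lie on the minus strand: chr2:122611278-122611527 for Gatm, chr10:80261013-80261262 for Gamt, chr12:111672339-111672588 for Ckb and chrX:85776820-85777069 for Gk. Capitals mark matches on either strand to 4 motifs. The E-box is CACGTG and reads the same on both strands. The TATA box was searched as TATAAA. The CCAAT box, named by its letters, reads ATTGG on the other strand. The GC box was searched as GGGCGG.
Gatm: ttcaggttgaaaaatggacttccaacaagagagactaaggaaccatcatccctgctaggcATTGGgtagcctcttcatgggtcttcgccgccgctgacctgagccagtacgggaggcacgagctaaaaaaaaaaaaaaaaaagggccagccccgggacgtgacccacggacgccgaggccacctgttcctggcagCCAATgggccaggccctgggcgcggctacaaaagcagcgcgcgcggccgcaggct
Gamt: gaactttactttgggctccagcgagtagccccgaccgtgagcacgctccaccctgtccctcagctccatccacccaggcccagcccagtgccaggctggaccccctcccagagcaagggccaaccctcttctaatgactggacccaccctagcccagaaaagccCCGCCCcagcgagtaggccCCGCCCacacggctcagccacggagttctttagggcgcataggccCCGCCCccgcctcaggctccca
Ckb: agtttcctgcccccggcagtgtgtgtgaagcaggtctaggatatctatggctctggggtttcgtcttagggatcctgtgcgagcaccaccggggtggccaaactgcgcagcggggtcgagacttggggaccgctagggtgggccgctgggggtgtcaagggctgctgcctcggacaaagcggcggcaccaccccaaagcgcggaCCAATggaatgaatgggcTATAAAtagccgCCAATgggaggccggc
Gk: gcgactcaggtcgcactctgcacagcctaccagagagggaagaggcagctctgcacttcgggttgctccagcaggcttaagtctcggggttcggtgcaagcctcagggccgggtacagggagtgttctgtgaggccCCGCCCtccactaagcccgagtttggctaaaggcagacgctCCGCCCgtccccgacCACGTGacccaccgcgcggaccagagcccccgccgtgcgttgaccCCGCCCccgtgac

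The 3 of these genes that rose did not share a layout. Ckb had a TATA box that begins 28 bases before the start, flanked by CCAAT boxes that begin 46 and 16 bases before it. Gatm had CCAAT boxes that begin 190 and 55 bases before the start and no TATAAA, and Gamt had 3 GC boxes, at 86, 67 and 22 bases, and neither of the others. Gk had GC boxes at 114, 73 and 13 bases and an E-box at 58 bases. Among 32851 mouse promoter windows of the same length, 12.4% held a TATA box, 33.8% a CCAAT box, 32.7% a GC box and 6.02% an E-box. These are matches of letters and not sites shown to be bound, and no matches in these 4 windows shared a base. The estrogen-related receptor element TCAAGGTCA, the ATF4 element TGATGCAA and the cAMP element TGACGTCA, in 0.387%, 0.791% and 1.55% of windows, had no match in the 10 windows of the 8 members with an entry. The GC content was 59.2% for Gatm, 66.8% for Gamt, 62.8% for Ckb and 67.2% for Gk, beside a median of 52.4% over all windows. The TATA, CCAAT and GC boxes were added to the search after these sequences had been read.

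The transcripts of both enzymes of creatine synthesis rose. Gatm (chromosome 2 from 122594467 to 122611303, minus strand) encodes the amidinotransferase that makes guanidinoacetate from arginine and glycine, the first and committed step. Wild-type mice gave 8, 20 and 15 counts and Letmd1 KO mice 65, 65 and 164, which is 0.861, 2.12 and 1.95 CPM against 7.13, 8.59 and 9.63 CPM. The lowest Letmd1 KO mouse was thus well above the highest wild-type mouse. The mean rose from 1.64 ± 0.683 to 8.45 ± 1.26 CPM (SD, n = 3), a log2 fold change of 2.37 ± 0.35 (SE) or 5.15-fold (adjusted p = 0.000622, edgeR). In wild-type BAT only 10.3% of the genes tested had a lower mean level than Gatm, and in Letmd1 KO BAT 28.7% did.

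Gamt (chromosome 10 from 80258151 to 80261012, minus strand) encodes the methyltransferase that turns guanidinoacetate into creatine. Its level was 7.11, 6.04 and 9.51 CPM in wild-type BAT, from 66, 57 and 73 counts, and 21.1, 23.0 and 16.1 CPM in Letmd1 KO BAT, from 192, 174 and 274 counts. The mean rose 2.65-fold, from 7.55 ± 1.78 to 20.1 ± 3.56 CPM (log2 fold change 1.41 ± 0.23 (SE), adjusted p = 0.000923, edgeR). QuantSeq reads 1 tag near the 3′ end of each mRNA, so its counts do not scale with gene length. Levels of different genes are set side by side on that basis. How the annotation of 3′ ends and reads with several alignments affect such comparisons was not tested. Gamt stood above Gatm in every mouse. The log2 ratio of Gatm to Gamt was -2.23 ± 0.74 in wild-type and -1.24 ± 0.44 in Letmd1 KO mice (SD, n = 3), ranges that overlapped, with p = 0.2 in a two-sided exact permutation test, where 3 mice against 3 cannot give less than 0.1. Neither change is thus shown to be larger than the other.

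The order of the Letmd1 KO mice was different for the 2 enzymes: the third mouse was highest for Gatm and lowest for Gamt. The macrophage and fibroblast sums were highest in the second Letmd1 KO mouse (3313 and 6870 CPM), which was highest for Gamt and in the middle for Gatm. Among the Letmd1 KO mice the sum of the general adipocyte markers was also highest in that mouse (25663 CPM). The part of these cell types was not tested. The mean log2 level of the skeletal muscle markers in each mouse was also added to the fit as a covariate. Both genes then stayed higher, at a log2 fold change of 1.92 for Gatm (adjusted p = 0.0242, edgeR) and 1.83 for Gamt (adjusted p = 0.00341, edgeR).

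The transcript of the creatine transporter rose as well. Slc6a8 (chromosome X from 73673150 to 73682502, plus strand) encodes the sodium-dependent creatine transporter of the cell surface. It was at 11.2, 9.53 and 12.5 CPM in wild-type mice, from 104, 90 and 96 counts, and at 15.1, 21.5 and 19.97 CPM in Letmd1 KO mice, from 138, 163 and 340 counts. The groups did not overlap, but the first Letmd1 KO mouse was close to the highest wild-type mouse. The mean went from 11.1 ± 1.49 to 18.9 ± 3.33 CPM, a 1.71-fold rise (log2 fold change 0.77 ± 0.19 (SE), adjusted p = 0.00986, edgeR). In Letmd1 KO BAT the levels of Slc6a8 and Gamt overlapped, whereas in wild-type BAT the lowest Slc6a8 value lay just above the highest Gamt value.

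Of the creatine kinases, the cytosolic brain-type enzyme rose and the others did not pass or were too low to test. Ckb (chromosome 12 from 111669361 to 111672338, minus strand) encodes a kinase that passes phosphate between ATP and creatine and that has been linked to the creatine cycle of thermogenic adipocytes. Its counts were 288, 302 and 223 in wild-type mice and 1276, 948 and 3123 in Letmd1 KO mice. The wild-type levels lay close together, at 31.0, 32.0 and 29.0 CPM, and the Letmd1 KO levels were 140.05, 125 and 183 CPM. The mean rose 4.88-fold, from 30.7 ± 1.5 to 149.6 ± 30.2 CPM (log2 fold change 2.29 ± 0.15 (SE), adjusted p = 9.88e-06, edgeR). Ckb moved from above 61.4% of the genes tested to above 91.8% of them. With the muscle level as a covariate its log2 fold change was 2.09 (adjusted p = 0.000734, edgeR), and without each mouse in turn it was between 2.11 and 2.40. Among the Letmd1 KO mice Ckb was lowest in the mouse with the highest macrophage and fibroblast sums. The Schwann cell and nerve sum followed the order of Ckb in these mice, with 589, 446 and 613 CPM. So did the sums of the brown adipocyte markers (4323, 3746 and 5279 CPM) and the skeletal muscle markers (527, 409 and 1473 CPM). The smooth muscle and pericyte markers had that order as well (379, 348 and 381 CPM). Apart from the fit with the muscle covariate, the part of these cell types in the result was not tested.

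The mitochondrial creatine kinases were rare. Ckmt1 (chromosome 2 from 121357714 to 121363737, plus strand), the ubiquitous mitochondrial form, had 0, 1 and 0 counts in wild-type mice and 0, 0 and 2 in Letmd1 KO mice. No mouse passed the limit of 3 counts, so no fold is given. A gene on the opposite strand, Strc, overlaps its 3′ end and had no more than 1 count in any mouse. The sarcomeric form Ckmt2 (chromosome 13 from 91853387 to 91876885, minus strand) had 0, 12 and 3 counts in wild-type and 11, 6 and 82 in Letmd1 KO mice. In CPM this was 0, 1.27 and 0.391 against 1.21, 0.793 and 4.82, so the groups overlapped and Letmd1 KO mouse 3 alone stood apart. The log2 fold change was 2.08 ± 0.95 (SE), with a 95% interval from -0.05 to 4.21 (adjusted p = 0.101, edgeR).

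The counts of Ckmt2 were set beside those of muscle transcripts. Ckm, the cytosolic creatine kinase of skeletal muscle, had 0, 227 and 0 counts in wild-type mice and 221, 136 and 1196 in Letmd1 KO mice. Both kinases were highest in the third Letmd1 KO mouse, and within the wild type both were highest in the second mouse. The slow and cardiac muscle markers summed to 9.80 to 16.7 CPM in wild-type and 12.5 to 40.9 CPM in Letmd1 KO mice, with 3 of the 5 tested higher and 1 lower. With the muscle marker level as a covariate the log2 fold change of Ckmt2 was 0.00 (adjusted p = 0.9999, edgeR), and without the third Letmd1 KO mouse it was 0.83 (adjusted p = 0.563, edgeR). It passed the threshold without the second wild-type mouse (3.64, adjusted p = 0.0450, edgeR) and with scaling by library size alone (2.50, adjusted p = 0.0466, edgeR).

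Within a mouse, Ckb made up all creatine kinase counts in the first wild-type mouse, 55.7% and 98.7% in the other two, and 84.6%, 87.0% and 70.9% in the Letmd1 KO mice. Ckm held 41.9% in the second wild-type mouse, 0% in the other 2 wild-type mice and between 12.5% and 27.2% in the Letmd1 KO mice. Ckmt2 held no more than 2.21% in any mouse. These shares overlapped between the genotypes, with p = 0.9 for Ckb, p = 1.0 for Ckm and p = 0.9 for Ckmt2 in two-sided exact permutation tests. The total of creatine kinase counts, 288, 542 and 226 in wild-type and 1508, 1090 and 4403 in Letmd1 KO mice, did not overlap between the genotypes.

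**Figure D2:**
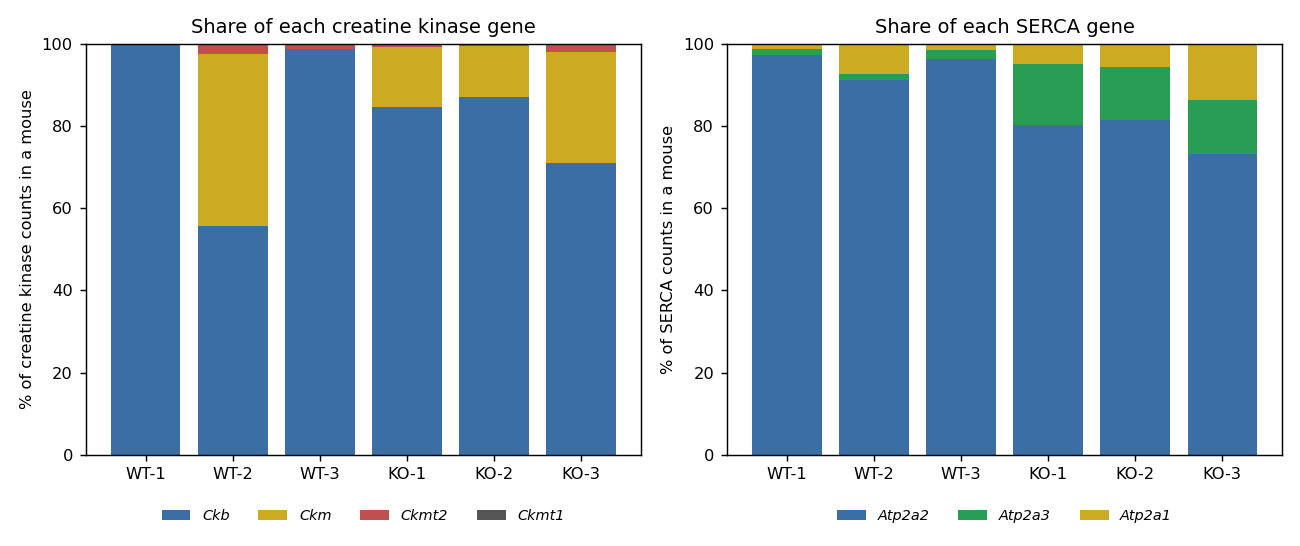
Share of each gene in the summed counts of the 4 creatine kinases (left) and the 3 SERCA pumps (right) in each mouse, in percent, with 3 wild-type mice (WT) and 3 Letmd1 KO mice (KO). Ckm varies from mouse to mouse within the wild type, whereas the Atp2a3 share lies between 1.54% and 2.28% in wild-type mice and between 13.0% and 14.8% in Letmd1 KO mice.

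The transcript of the phosphatase of the cycle went the other way. Alpl (chromosome 4 from 137741733 to 137796384, minus strand) encodes tissue-nonspecific alkaline phosphatase, which can hydrolyse phosphocreatine and which bone and endothelial cells also make. It was at 18.1, 14.4 and 22.3 CPM in wild-type BAT, from 168, 136 and 171 counts, and at 14.4, 6.48 and 9.87 CPM in Letmd1 KO BAT, from 131, 49 and 168 counts. The highest Letmd1 KO mouse, at 14.38 CPM, was barely below the lowest wild-type mouse, at 14.40 CPM. The mean fell from 18.3 ± 3.94 to 10.2 ± 3.96 CPM, a log2 fold change of -0.82 ± 0.28 (SE, adjusted p = 0.0386, edgeR). The endothelial sum was lower in Letmd1 KO BAT too, as given above, and was lowest in the second Letmd1 KO mouse, where Alpl was also lowest. The brown adipocyte, skeletal muscle, and Schwann cell and nerve sums were lowest in that mouse as well. Among the wild-type mice Alpl was lowest in the second and the endothelial sum in the first. The part of endothelial cells in the change of Alpl was not tested.

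The call for Alpl depended on the setting. It was lost with scaling by library size alone (-0.40, adjusted p = 0.256, edgeR) and with the muscle level as a covariate (-0.49, adjusted p = 0.404, edgeR). Without wild-type mouse 1 or 3 the values were -0.84 (adjusted p = 0.0826, edgeR) and -0.67 (adjusted p = 0.103, edgeR), and without Letmd1 KO mouse 2 or 3 they were -0.60 (adjusted p = 0.0816, edgeR) and -0.79 (adjusted p = 0.104, edgeR).

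The transcript of the main pump of calcium cycling did not pass the test. Atp2a2 (chromosome 5 from 122453513 to 122502225, minus strand) encodes SERCA2, the pump that fills the endoplasmic reticulum in most cells and whose SERCA2b form has been tied to calcium cycling in beige fat. The 3′ counts do not separate its splice forms. It was the most abundant of the 10 genes, above 94.7% of the genes tested in wild-type and 96.4% in Letmd1 KO BAT. Its counts were 2820, 2792 and 1519 in wild-type mice and 2729, 1907 and 5234 in Letmd1 KO mice, or 304, 296 and 198 CPM against 299.5, 252 and 307 CPM. The third wild-type mouse was the lowest of all 6, and the other 5 lay together. The means were 266 ± 58.9 and 286 ± 29.9 CPM, with a log2 fold change of 0.11 ± 0.17 (SE), a 95% interval from -0.27 to 0.49 and an adjusted p of 0.632 (edgeR). The direction was not settled: without the third wild-type mouse it was -0.077, and with scaling by library size alone it was 0.53 and passed the threshold (adjusted p = 0.0292, edgeR).

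The release channel was at the edge of detection. Ryr2 (chromosome 13 from 11553102 to 12106945, minus strand), the ryanodine receptor of heart muscle, had 6, 3 and 5 counts in wild-type and 5, 2 and 5 in Letmd1 KO mice and was not tested. A difference was not detectable at this depth. The skeletal muscle receptor Ryr1 had 0, 36 and 0 counts against 41, 26 and 105, the pattern of the muscle markers, and did not pass (log2 fold change 1.85, adjusted p = 0.164, edgeR). Ryr3 had between 2 and 17 counts in every mouse and was not tested. Among the inositol trisphosphate receptors, the other release channels of the endoplasmic reticulum, Itpr1 and Itpr2 were more abundant than the ryanodine receptors in both genotypes. Itpr2 fell from 517 ± 54.8 to 288 ± 63.3 CPM (log2 fold change -0.84, adjusted p = 0.00301, edgeR) and Itpr1 from 118 ± 10.6 to 53.2 ± 4.46 CPM (-1.15, adjusted p = 6.67e-05, edgeR). Itpr3, at 3.16 ± 1.32 and 3.07 ± 0.574 CPM, did not pass (adjusted p = 0.926, edgeR). The call for Itpr2 was lost with library size alone (-0.42, adjusted p = 0.0624, edgeR).

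The makeup of the SERCA family differed between the genotypes even though Atp2a2 did not pass. Atp2a3, which encodes SERCA3, a pump of blood and endothelial cells among others, had 49, 47 and 36 counts in wild-type and 502, 303 and 939 in Letmd1 KO mice. Its level rose from 4.98 ± 0.294 to 50.1 ± 8.70 CPM (log2 fold change 3.33 ± 0.18 (SE), adjusted p = 3.38e-06, edgeR). Atp2a3 made up 1.69%, 1.54% and 2.28% of SERCA counts in wild-type BAT and 14.8%, 13.0% and 13.1% in Letmd1 KO BAT. The share of Atp2a2 was 97.2%, 91.2% and 96.3% against 80.3%, 81.5% and 73.1%. Neither share overlapped between the genotypes, and p was 0.1 for each in two-sided exact permutation tests, the smallest that this design can give (0.167 after Benjamini-Hochberg adjustment over 20 values within a mouse). The macrophage sum was higher in all 3 Letmd1 KO mice as well. The Atp2a3 level was 55.1, 40.05 and 55.2 CPM in these mice, where the macrophage sum was 1620, 3313 and 1385 CPM, and the part of macrophages in the result was not tested. The muscle pump Atp2a1 went with the muscle markers, with 32, 222 and 23 counts against 168, 129 and 983, and did not pass (log2 fold change 1.64, adjusted p = 0.0980, edgeR). The small pump inhibitors were scarce: Sln had 3 counts in the third Letmd1 KO mouse and 0 in every other mouse, and Pln had between 2 and 28 counts in each mouse.

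The glycerol kinase transcript fell. Gk (chromosome X from 85701937 to 85776819, minus strand) gave 2878, 1924 and 927 counts in wild-type BAT, and 970, 473 and 1384 in Letmd1 KO BAT. This gave 310, 204 and 121 CPM against 106, 62.5 and 81.3 CPM. The wild-type mice were spread widely, and the lowest of them stood just above the highest Letmd1 KO mouse. The mean fell 2.53-fold, from 211 ± 94.8 to 83.4 ± 22.1 CPM (log2 fold change -1.34 ± 0.31 (SE), adjusted p = 0.00668, edgeR). In wild-type BAT the values of Gk overlapped those of Atp2a2, the only member with a higher mean, and in Letmd1 KO BAT both Atp2a2 and Ckb had higher means than Gk and did not overlap it. With the muscle level as a covariate the log2 fold change was -1.29 but the call was lost (adjusted p = 0.0583, edgeR). The summed level of the brown adipocyte markers was lower in the same mice, and the part of this in the lower Gk was not tested.

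**Figure D3:**
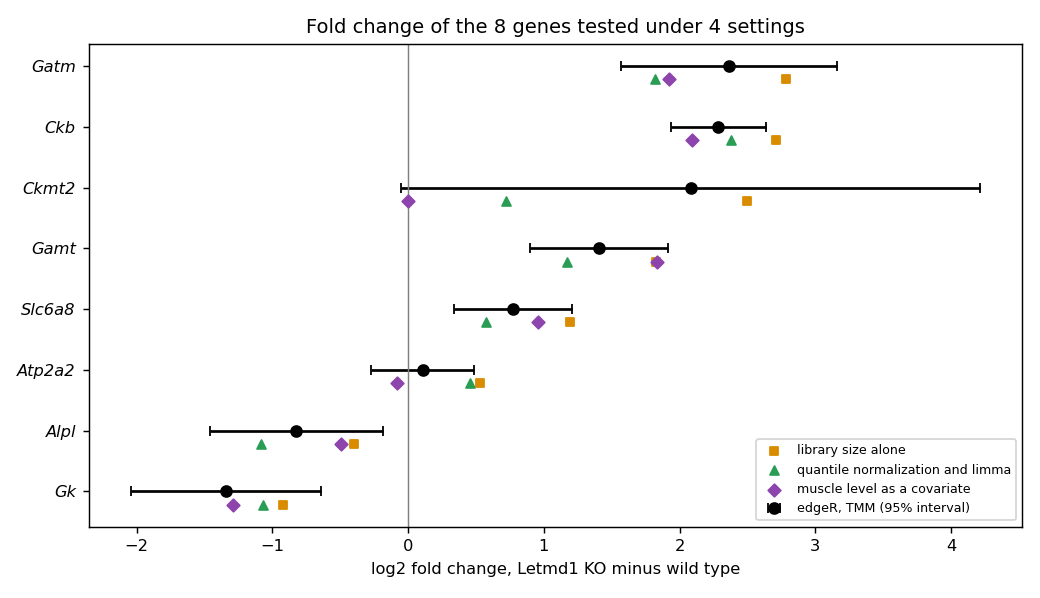
Log2 fold change (Letmd1 KO minus wild type, horizontal axis) of the 8 genes tested, with 95% intervals from edgeR on TMM-scaled counts of 3 mice per genotype (black) and the estimate with library size as the only scaling, with limma after quantile normalization, and with the muscle marker level as a covariate (coloured). The 4 genes of creatine synthesis, uptake and cytosolic kinase stay above 0 under each setting, whereas Ckmt2 drops to 0.00 with the muscle covariate and Atp2a2 changes sign.

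Set against Ucp1 in the same mouse, a comparison that needs no library scaling, 9 of the 10 genes stood higher in every Letmd1 KO mouse than in any wild-type mouse, and Ckmt1, with 2 counts or fewer, overlapped. The same was true of 99.1% of all genes tested, since few genes fell as far as Ucp1, so this is not particular to these genes and the values below are a description only. Ucp1, the uncoupling protein that defines brown adipocytes, gave 58144, 55093 and 52719 counts in wild-type BAT, and 3775, 1926 and 8098 in Letmd1 KO BAT, where its level was 16.6-fold lower (log2 fold change -4.05 ± 0.25 (SE), adjusted p = 6.96e-06, edgeR). Atp2a2 counts were 4.85%, 5.07% and 2.88% of the Ucp1 counts in wild-type mice and 72.3%, 99.0% and 64.6% in Letmd1 KO mice. Ckb went from 0.495%, 0.548% and 0.423% to 33.8%, 49.2% and 38.6%. Even Gk, which fell by itself, went from 4.95%, 3.49% and 1.76% of the Ucp1 counts to 25.7%, 24.6% and 17.1%. On the log2 scale, with 0.5 added to each count, the mean ratio to Ucp1 was higher in Letmd1 KO mice by 2.82 for Gk, 4.22 for Atp2a2, 6.36 for Ckb and 6.50 for Gatm. These ratios share the Ucp1 counts in the denominator, so they are not separate observations. For Ckmt1, Ckmt2 and Ryr2 they rest on a few counts in most mice.

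**Figure D4:**
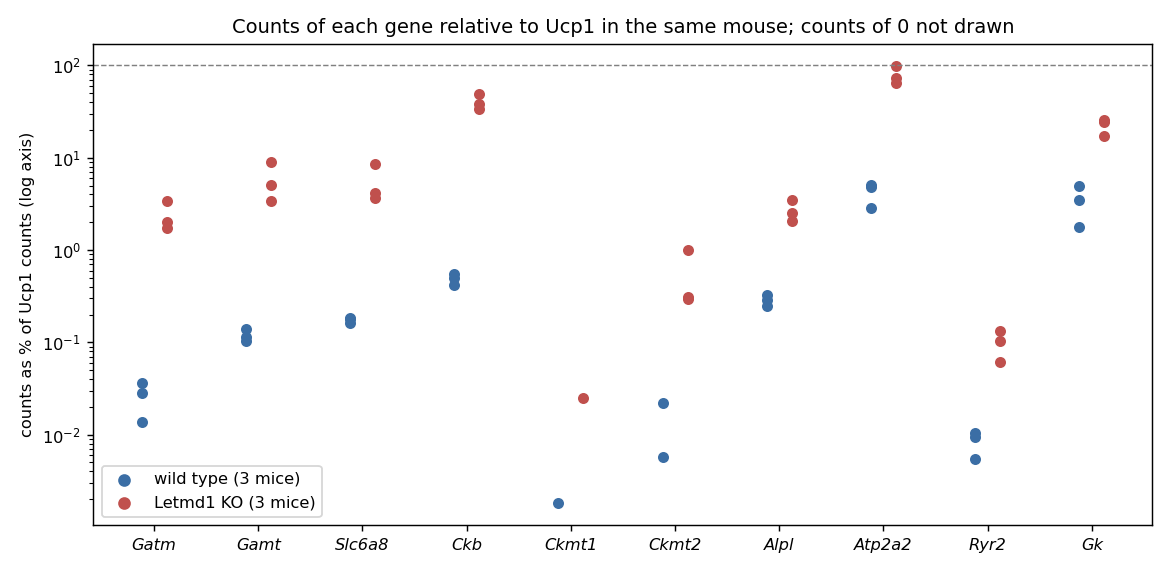
Counts of each gene as a percentage of the Ucp1 counts in the same mouse (vertical log axis), with 3 wild-type mice in blue and 3 Letmd1 KO mice in red; counts of 0 are not drawn and the dashed line marks 100%. Atp2a2 lies between 2.88% and 5.07% in wild-type mice and between 64.6% and 99.0% in Letmd1 KO mice.

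The genes around these cycles were read from 6 lists, with 108 genes tested in all beside the 10. Of these, 41 (38.0%) were lower and 20 (18.5%) higher, against 22.3% and 23.7% of all genes tested. Where libraries were scaled by their size only, 25 were lower and 43 higher.

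The creatine neighbours include genes that handle amino acids, methyl groups, phosphate and ATP. They went in both directions, with 12 of 27 lower, 7 higher and a median log2 fold change of -0.33. The largest rise was in Slc7a1, the cationic amino acid transporter that brings in arginine, from 3.30 ± 1.0 to 29.3 ± 3.83 CPM (log2 fold change 3.14 ± 0.23 (SE), adjusted p = 1.46e-05, edgeR). Its relative Slc7a2 rose too, from 3.66 ± 1.15 to 20.4 ± 3.20 CPM (2.45, adjusted p = 8.30e-05, edgeR). The largest fall was in Glul, glutamine synthetase, from 4519 ± 543 to 541 ± 338 CPM (-3.06, adjusted p = 0.000217, edgeR). Gnmt, which uses up methyl groups by methylating glycine, fell from 5.72 ± 3.63 to 0.743 ± 0.322 CPM (-2.97, adjusted p = 0.00225, edgeR).

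In the calcium lists the calls were fewer. Of 11 calcium pumps and regulators tested, 2 were lower and 4 higher, with Tmco1, a calcium channel of the endoplasmic reticulum, lowest at -0.79 (adjusted p = 0.00136, edgeR) and Atp2a3 highest. Of 25 genes of release and storage, 3 were lower and 5 higher. The ends of that list were the calreticulin relative Calr3, which fell (-1.27, adjusted p = 0.0256, edgeR), a call that was lost with library size alone (-0.85, adjusted p = 0.0940, edgeR), with the muscle covariate (adjusted p = 0.116, edgeR), with the replicate block (adjusted p = 0.0570, edgeR) and without wild-type mouse 1 or 2 or Letmd1 KO mouse 1 or 2 (adjusted p between 0.0526 and 0.0951, edgeR), and the muscle junction gene Trdn, which did not pass (2.39, adjusted p = 0.0932, edgeR). Of 16 genes of store-operated and surface calcium transport, 3 were lower and 2 higher, with the store sensor Stim1 lowest (37.7 ± 6.33 to 19.4 ± 0.948 CPM, -0.96, adjusted p = 0.00102, edgeR) and the muscle channel gene Cacna1s highest without passing (1.92, adjusted p = 0.128, edgeR). The medians of these 3 lists were 0.38, 0.19 and 0.17.

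Most transcripts of glycerol and lipid cycling were lower, as Gk was: 14 of the 18 other genes tested were lower and 2 higher, and the median log2 fold change was -1.25. The general adipocyte markers, which share Lipe and Pnpla2 with this list, moved the same way, with sums of 40001 to 46700 CPM in wild-type and 14330 to 25663 CPM in Letmd1 KO mice and 6 of 11 called lower and 1 higher. Their part in the result was not tested. Gpd1 and Gpd2, the cytosolic and mitochondrial glycerol 3-phosphate dehydrogenases, fell from 6292 ± 896 to 755 ± 54.6 CPM (-3.06, adjusted p = 3.41e-06, edgeR) and from 3281 ± 216 to 495 ± 46.0 CPM (-2.73, adjusted p = 3.09e-06, edgeR). Dgat2, which completes triglyceride synthesis, fell from 1959 ± 49.4 to 362 ± 80.5 CPM (-2.44, adjusted p = 1.14e-05, edgeR). The largest rise was in Gpat3, an acyltransferase that starts glycerolipid synthesis, from 10.9 ± 8.86 to 64.5 ± 0.936 CPM (2.55, adjusted p = 0.0014, edgeR). Its relatives Gpat4 and Gpam fell. Gpat4 went from 902 ± 334 to 166 ± 22.5 CPM (-2.44, adjusted p = 9.00e-05, edgeR) and Gpam from 25.9 ± 3.80 to 5.16 ± 0.602 CPM (-2.33, adjusted p = 2.16e-05, edgeR). The related gene Gk5 had 12 counts or fewer in every mouse and was not tested.

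**Figure D5:**
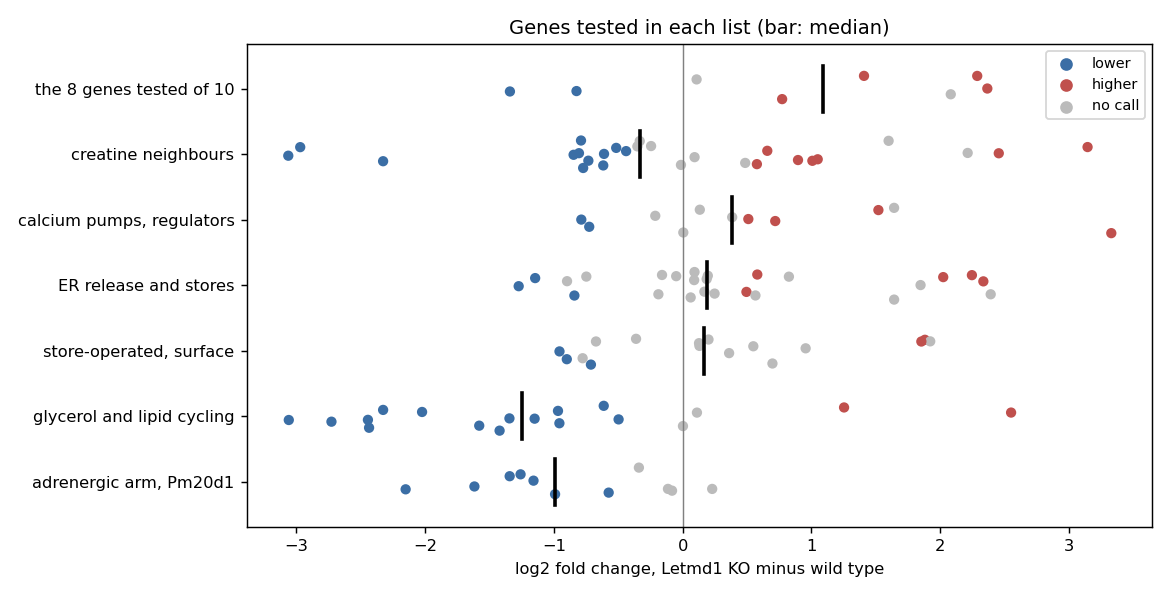
Log2 fold change (Letmd1 KO minus wild type, horizontal axis) of the genes tested in each list, 1 point per gene, blue where called lower, red where called higher and grey where not called; black bars give each list's median, and points are jittered vertically. The 18 glycerol and lipid cycling genes have a median of -1.25, and the 8 tested of the 10 genes described have a median of 1.09.

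The list of adrenergic and related genes holds the alpha1-adrenergic and Gq arm that has been placed upstream of the creatine cycle, the cyclic AMP arm and Pm20d1, which makes uncoupling N-acyl amino acids. Of its 11 genes tested, 7 were lower and 0 were higher, and the median was -0.99. Adra1a, the alpha1A-adrenergic receptor, fell from 53.3 ± 6.75 to 23.8 ± 2.03 CPM (-1.16, adjusted p = 0.000199, edgeR). The less abundant alpha1 receptors Adra1b (-0.083, adjusted p = 0.919, edgeR) and Adra1d (-0.34, adjusted p = 0.522, edgeR) did not pass. Gnaq, the Gq subunit gene, was the most positive at 0.23 and did not pass (106 ± 13.4 and 124 ± 3.07 CPM, adjusted p = 0.134, edgeR). The largest fall was in Gnas, which encodes the stimulatory G protein subunit (-2.15, adjusted p = 1.09e-05, edgeR). Prkaca, a catalytic subunit of protein kinase A, fell from 479 ± 9.95 to 189 ± 10.8 CPM (-1.34, adjusted p = 1.67e-05, edgeR) and Pm20d1 from 21.0 ± 0.822 to 6.62 ± 2.87 CPM (-1.62, adjusted p = 0.00127, edgeR).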

How the data were processed

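QuantSeq 3′ mRNA libraries were made from BAT of 3 mice per genotype. Reads were aligned with Bowtie2, and bedtools counted those with a single alignment or several on each gene. The authors deposited these counts, as whole numbers, in a file per mouse. The submitters' processing notes name the build mm10 (GRCm38). Use of strand, gene annotation and tool versions are not given in the sources used here. The quantile normalization that the methods name is not in the deposited counts.

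The counts were tested with edgeR 4.0.16 under R 4.3.3 (TMM, default filter at 10 counts and 15 in total, quasi-likelihood test, genotype only, Benjamini-Hochberg adjustment over 12995 genes, threshold 0.05). Of 23282 rows, 5588 had no counts. No mouse repeated another, since mice of the same genotype gave a chi-square of 11.5 to 34.0 per degree of freedom. Shares and ratios within a mouse were compared by exact permutation tests. The muscle covariate was the mean, over the skeletal muscle markers, of their log2 CPM in each mouse. Alternatives were library size alone, quantile normalization with limma 3.58.1, DESeq2 1.42.0, no filter, a mean of at least 50 counts, a replicate block, the muscle covariate and leaving out each mouse. Steps were tested on simulated data.

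Genes named are the 10 members, their paralogs, Letmd1, Ucp1, Sln, Pln and the genes at both ends of each list. Slc7a2, Gnmt, Gpd2, Dgat2, Gpat4, Gpam, Adra1a, Adra1b, Adra1d, Prkaca and Pm20d1 were chosen after their values were seen. The members and lists were chosen with earlier results of these data known. Positions are from GENCODE vM21 on GRCm38.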

Additional observations from a re-analysis of the deposited data

How the results depend on the processing

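Gatm, Gamt, Slc6a8 and Ckb were called higher under every alternative and without each mouse. Of 103 values of the 8 genes tested under the alternatives, 90 kept their direction and their side of the threshold. The genes called lower, 2 of the members, were 1 with library size alone, 1 under the filter at a mean of 50 and 0 with the muscle covariate, and between 1 and 2 without each mouse. The muscle covariate leaves 1 fewer residual degree of freedom, and 1777 genes were then lower and 1813 higher in all, in place of 2896 and 3082. With library size alone, 25 genes of the neighbouring lists were lower and 43 higher, in place of 41 and 20. Directions turned only for genes that did not pass. Atp2a2 was at -0.085 with the muscle covariate and between -0.077 and 0.21 without each mouse, and Atp2a1 was at -0.18 with the muscle covariate. Itpr3 was at 0.36 with library size alone, 0.011 with the replicate block, and between -0.32 and 0.30 without each mouse. The replicate numbers did not pair the mice: deviations of same-numbered mice correlated at 0.08, -0.10 and -0.09, and not every mouse correlated best with its own number. With the replicate block 2 members were lower and 4 higher, as without it, 41 and 19 genes of the neighbouring lists were called, and 2713 and 2886 of all genes. Depth limits Ckmt1, Ryr2, Sln and Pln, which could not be tested, and Ckmt2.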
